A study of Bos taurus with 8 samples.

Results

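The 3 red-cell miRNAs of rumen fluid, bta-miR-451, bta-miR-144 and bta-miR-486, were followed through 8 small RNA libraries. They were taken by name from the deposited table of each library, and are 3 of the 565 listed miRNA entries and 3 of the 377 that reached 10 reads in some library. All 3 had at least 10 reads in every library. Rumen fluid came from 4 non-lactating Holstein cows with a rumen cannula, each sampled on both diets. On the forage diet (0% concentrate, grass silage, corn silage and hay) it was collected on day 7, and on the high-grain (HG) diet (65% concentrate in dry matter), reached by stepwise adaptation, on day 1, each time 4 h after feeding. One library was made per cow and diet (4 forage, 4 HG), and equal replicate numbers were read as the same cow. All cows carried a cannula and none stayed on forage throughout, so diet and time cannot be told apart.

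MicroRNAs are short RNAs that guide Argonaute proteins to messenger RNAs and lower their output. miR-451 and miR-144 are cut from 1 shared primary transcript that the erythroid factor GATA1 switches on. miR-451 is matured by an Argonaute protein instead of Dicer, and both act in the maturation of red cells and their defence against oxidants. miR-486 is encoded within the gene of the red-cell membrane protein ankyrin, and is also made in muscle. Mature red cells of mammals have no nucleus but retain these miRNAs, which makes them common in blood and in fluids that blood cells enter.

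In the UMD3.1 coordinates of the deposited tables, bta-miR-451 lay at chr19:20796875-20796897 and bta-miR-144 at chr19:20797071-20797092, both on the minus strand, with 173 bases between the mature positions. bta-miR-486 lay at chr27:36261849-36261870, also on the minus strand. By the ARS-UCD2.0 gene names, from which only the order of neighbours was taken, MIR451 stood between ERAL1 and MIR144, MIR144 stood between MIR451 and FLOT2, and MIR486 lay inside ANK1, the ankyrin gene.

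The libraries held 300116 to 522804 miRNA reads and 1407364 to 4972752 reads in all, as recovered from the deposited RPM, and miRNA reads were 6.67% to 29.3% of all reads. HG replicate 2 stood apart from the other 7 libraries. Over 220 bovine entries with distinct read profiles, some of which share reads, chi-square per degree of freedom was 46.8 to 64.5 for pairs with HG replicate 2 and 1.403 to 2.70 for the 21 other pairs (largest p = 7.7e-05). Over the 78 bovine entries that share no reads it was 23.7 to 28.7 for pairs with HG replicate 2 and 0.993 to 2.40 for the 21 others, of which 7 had p over 0.05. The labels give each library as a separate sample with a diet and a replicate number, but name no cow. None was merged, although over these 78 entries some pairs could not be told from read sampling. Shares, diet effects, ratios and list medians are given with and without HG replicate 2. Because rumen fluid is a bulk sample, fewer cells of a type, less RNA per cell and less RNA outside cells cannot be told apart. Shares are reads of an entry as a percentage of the miRNA reads of its library, and the Wilson intervals given for them reflect read sampling alone, because PCR copies of a molecule are read as separate reads.

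bta-miR-451 was the bovine entry with the most reads over the 8 libraries, with 532591. It had 84576, 90612, 77478 and 56467 reads in forage replicates 1 to 4. In HG replicates 1 to 4 it had 49699, 42440, 66024 and 65295 reads. It ranked first among bovine entries in 7 libraries and rank 2 in HG replicate 2. Its share was 17.1%, 17.3%, 17.0% and 17.0% in forage replicates 1 to 4. The share in HG replicates 1 to 4 was 16.6%, 12.6%, 16.9% and 16.8%. All 4 HG libraries lay below all 4 forage libraries, a pattern shown by 2.65% of the 377 entries, while 1.33% showed the opposite one. The gap between the diets was narrow outside HG replicate 2, since the 95% Wilson interval of forage replicate 3 (16.9% to 17.1%) overlapped that of HG replicate 3 (16.8% to 17.0%). The mean share was 17.1% ± 0.156 (SD, n = 4) under forage against 15.7% ± 2.07 (SD, n = 4) under HG feeding, or 16.8% ± 0.177 (SD, n = 3) without HG replicate 2.

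bta-miR-486 had 91159 reads and ranked 8 among bovine entries. Its reads were 14612, 15352, 13165 and 9675 in forage replicates 1 to 4. They were 8864, 7022, 11435 and 11034 in HG replicates 1 to 4. The counts were highest in the forage libraries with most miRNA reads, so they are given below as shares. The share was 2.96%, 2.94%, 2.89% and 2.92% in forage replicates 1 to 4. It was 2.95%, 2.09%, 2.93% and 2.84% in HG replicates 1 to 4. The diets overlapped, and HG replicate 2 alone was far below the rest. Its mean was 2.92% ± 0.0301 (SD, n = 4) under forage against 2.70% ± 0.412 (SD, n = 4) under HG feeding, or 2.91% ± 0.0575 (SD, n = 3) without HG replicate 2.

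bta-miR-144 was the scarcest of the 3, with 10649 reads and rank 49. It had 1659, 1768, 1491 and 1127 reads in forage replicates 1 to 4. It had 997, 879, 1343 and 1385 reads in HG replicates 1 to 4. Relative to its level, counting error is therefore larger for bta-miR-144 than for the other two. Its share was 0.336%, 0.338%, 0.327% and 0.340% in forage replicates 1 to 4. The share was 0.332%, 0.261%, 0.344% and 0.357% in HG replicates 1 to 4. HG replicate 4 was the highest and HG replicate 2 the lowest of the 8, so the diets overlapped. Means were 0.335% ± 0.00568 (SD, n = 4) under forage and 0.324% ± 0.0426 (SD, n = 4) under HG feeding, or 0.344% ± 0.0123 (SD, n = 3) without HG replicate 2.

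**Figure D1:**
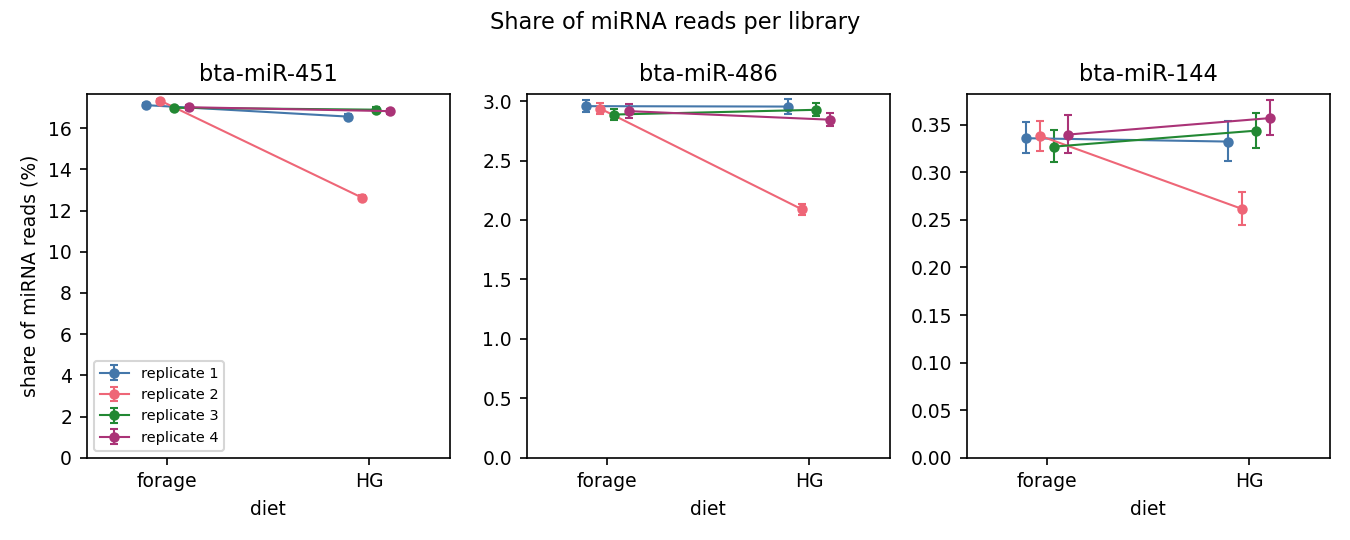
Share of miRNA reads (%) of bta-miR-451, bta-miR-486 and bta-miR-144 by diet, with 1 point per library, lines joining the libraries of a cow and bars for 95% Wilson intervals (counting error only). HG replicate 2 is the lowest library in each panel, at 12.6%, 2.09% and 0.261%.

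The plot of shares by diet shows 7 libraries close to one level for each miRNA and 1 library below it. The order bta-miR-451, bta-miR-486, bta-miR-144 held in each of the 8 libraries, for mature products of 23, 22 and 22 bases. Mean shares on the forage diet were 5.85 times higher for bta-miR-451 than for bta-miR-486 and 8.73 times higher for bta-miR-486 than for bta-miR-144. On the HG diet the same ratios were 5.82 and 8.35. With divided reads, which leave bta-miR-144 whole, bta-miR-486 was 4.36 times bta-miR-144 on the forage diet and 4.18 times on the HG diet, and the mean forage share of bta-miR-451 was 10.8% of divided reads. The 3 together took 20.4% ± 0.179 (SD, n = 4) of miRNA reads under forage and 18.8% ± 2.52 (SD, n = 4) under HG feeding, or 20.01% ± 0.160 (SD, n = 3) without HG replicate 2.

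Replicate spread was set against counting error. On the forage diet the SD of the share between cows was 0.650 times the SD that counting alone gives for bta-miR-144, 1.18 times for bta-miR-486 and 2.74 times for bta-miR-451. On the HG diet without replicate 2 it was 1.26, 2.04 and 2.82 times. With HG replicate 2 it was 4.45, 15.04 and 33.7 times, in the same order of miRNAs.

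HG replicate 2 held 74.4% of the mean share of the other 7 libraries for bta-miR-451, 77.1% for bta-miR-144 and 71.6% for bta-miR-486. For bta-miR-451 the other 7 libraries spanned 16.6% to 17.3%. The 3 miRNAs were lowest in HG replicate 2, as were 186 of the 377 entries (49.3%). bta-miR-23a, the miRNA in general use as the reference for red-cell lysis in plasma, was at 104% of the other libraries in the same sample. These sizes depend on the scaling. In TMM-normalised CPM, HG replicate 2 held 85.9% of the mean of the other 7 libraries for bta-miR-451, 89.0% for bta-miR-144 and 82.6% for bta-miR-486, against 119% for bta-miR-23a. In the authors' normalised values the 3 stood at 85.03%, 88.1% and 81.8%, against 119% for bta-miR-23a.

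Relative to all reads of the library, a level is the share of miRNA reads times the proportion of miRNA reads, so with near-equal shares it follows that proportion by construction. bta-miR-451 had 50158, 28432, 29499 and 11355 RPM (reads scaled to a common total of all reads) in forage replicates 1 to 4. On the HG diet it had 16051, 10889, 46913 and 14460 RPM in replicates 1 to 4. The highest library was 4.61 times the lowest on this scale and 1.37 times the lowest as a share of miRNA reads. For bta-miR-144 the same ratios were 4.36 and 1.36, and for bta-miR-486 they were 4.81 and 1.42. Forage replicate 1 and HG replicate 3 were the highest for all 3 miRNAs, and miRNA reads made up 29.3% and 27.8% of all reads in them. The RPM of each miRNA was higher on the HG diet in 2 of 4 cows and lower in 2 of 4.

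**Figure D2:**
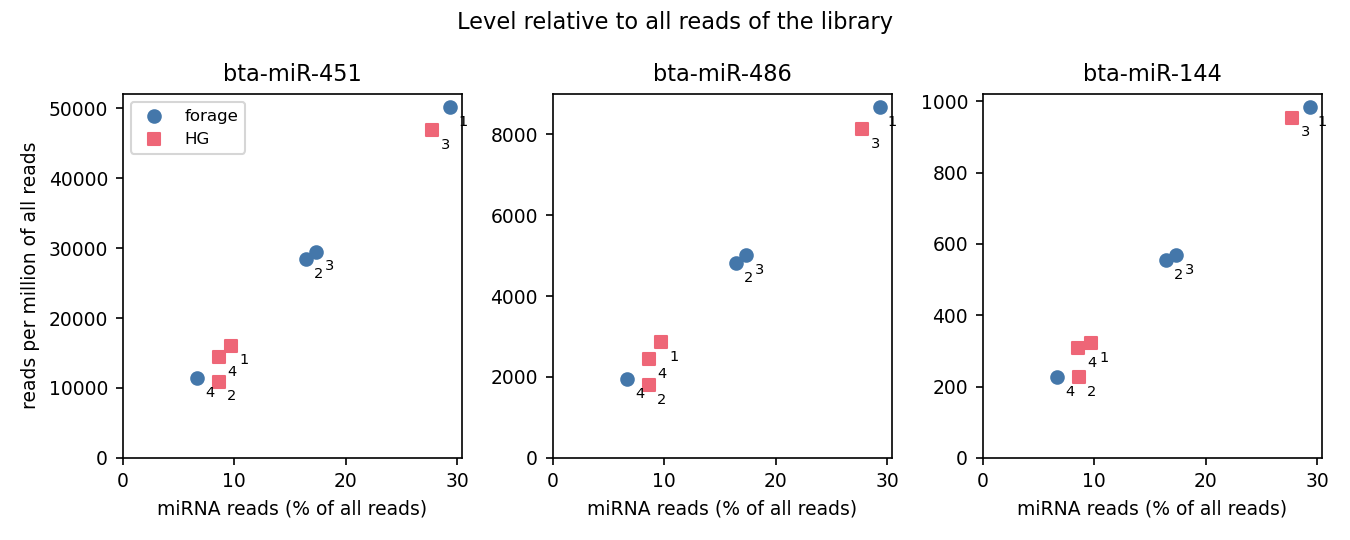
RPM of all reads against the percentage of all reads that were miRNA reads, with 1 point per library, numbered by replicate, for the forage and HG diets. For bta-miR-451 the 2 libraries with the highest percentage of miRNA reads, forage replicate 1 and HG replicate 3, sit at 50158 and 46913, and the other 6 at 10889 to 29499.

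The plot against the proportion of miRNA reads places libraries of both diets close to one line for each miRNA, which near-equal shares give by arithmetic. What else the remaining reads held was not analysed here.

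The effect of diet was tested with cow and diet in the model, over all 377 entries. edgeR's quasi-likelihood test called none of the 377 entries at an adjusted p of 0.05 (0%), with 9 at an unadjusted p below 0.05, and DESeq2 called 0, with 3 at an unadjusted p below 0.05. bta-miR-451 had a log2 fold change, HG over forage, of -0.08 (SE 0.05, 95% interval -0.20 to 0.04, edgeR adjusted p = 0.788). bta-miR-486 had -0.08 (SE 0.06, 95% interval -0.23 to 0.08, edgeR adjusted p = 0.788). bta-miR-144 had -0.01 (SE 0.06, 95% interval -0.17 to 0.15, edgeR adjusted p = 0.939). None of the 3 differed between the diets beyond the spread left after cow and diet were fitted, while the intervals leave differences of the sizes stated. In 4 of 4 cows the TMM-normalised level of bta-miR-451 was lower under HG feeding, which held for 6.9% of entries. For bta-miR-144 and bta-miR-486 it was lower in 2 of 4 cows. Without replicate 2 on both diets the log2 fold changes were -0.02 for bta-miR-451, -0.0041 for bta-miR-486 and 0.04 for bta-miR-144, which turned its direction.

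**Figure D3:**
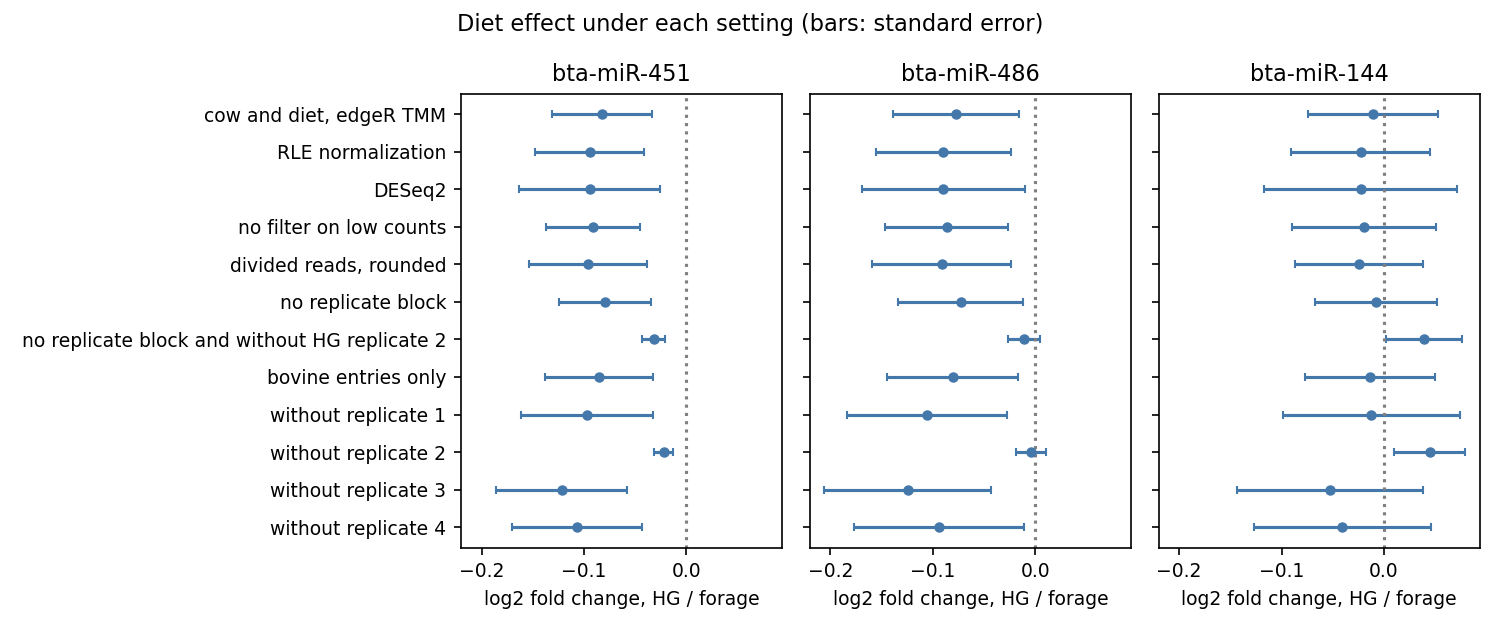
Log2 fold change, HG over forage, of bta-miR-451, bta-miR-486 and bta-miR-144 under the model with cow and diet and under 11 alternatives, with points for the estimate and bars for its standard error. For bta-miR-451 the estimates run from -0.12 to -0.02, and those without HG replicate 2 lie nearest to 0.

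The plot of diet effects shows that the settings without HG replicate 2 moved all 3 miRNAs towards higher values, and that normalisation, tool and filter moved them less.

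Ratios of 2 miRNAs within a library need no scaling between libraries. bta-miR-144 and bta-miR-451, which share a transcript, were compared first. Per 100 reads of bta-miR-451 there were 1.96, 1.95, 1.92 and 1.996 reads of bta-miR-144 in forage replicates 1 to 4. There were 2.01, 2.07, 2.03 and 2.12 in HG replicates 1 to 4. With divided reads, which split those of bta-miR-451 with its human entry, the values were 3.85 to 3.99 on the forage diet and 4.01 to 4.24 on the HG diet, with the same log2 difference between diets. All 4 HG libraries lay above all 4 forage libraries, as they did for 7.97% of the 276 entries that could be set over bta-miR-451 in the same way, and 0.362% showed the opposite. The mean paired difference was 0.07 on the log2 scale (SD 0.026, n = 4 cows), a ratio 1.05 times higher on the HG diet, and it was higher in 4 of 4 cows (two-sided exact permutation test, p = 0.13, the smallest that 4 pairs allow; adjusted over the 4 ratios tested, p = 0.5). Without replicate 2 the difference was 0.07. Without the pairing, the two-sided exact permutation test of 4 against 4 gave p = 0.0286, the smallest it allows, or 0.114 adjusted over the 4 ratios. Counting alone gives the mean paired difference an SD of 0.029 on the log2 scale. The counting SD of a single library's log2 ratio was 0.035 to 0.049, and the Wilson intervals of neighbouring libraries overlapped, with 1.88 to 2.12 in forage replicate 4 and 1.88 to 2.14 in HG replicate 1.

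bta-miR-486 per 100 reads of bta-miR-451 was 17.1 ± 0.151 (SD, n = 4) under forage and 17.1 ± 0.556 (SD, n = 4) under HG feeding. The mean paired log2 difference was 0.0048, higher in 2 of 4 cows (two-sided exact permutation test, p = 0.875), and 0.02 without replicate 2. bta-miR-144 per 100 reads of bta-miR-486 was 11.5 ± 0.151 (SD, n = 4) under forage and 12.02 ± 0.633 (SD, n = 4) under HG feeding, or 22.9 ± 0.301 and 24.03 ± 1.27 (SD, n = 4) with divided reads. The mean paired log2 difference was 0.07, higher in 3 of 4 cows (two-sided exact permutation test, p = 0.25), and 0.05 without replicate 2. In HG replicate 2, bta-miR-486 to bta-miR-451 was the lowest of the 8 libraries, at 16.5, and bta-miR-144 to bta-miR-486 was 12.5, within the range of the other libraries.

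The ratio of bta-miR-451 to bta-miR-23a serves in plasma as a measure of red-cell lysis. It was 17.9 ± 0.480 (SD, n = 4) under forage and 16.4 ± 2.46 (SD, n = 4) under HG feeding. HG replicate 2 had the lowest ratio, 12.8, and the highest HG library was at 18.005. The mean paired log2 difference was -0.13, lower in 2 of 4 cows (two-sided exact permutation test, p = 0.625), and it was 0.0012 without replicate 2.

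**Figure D4:**
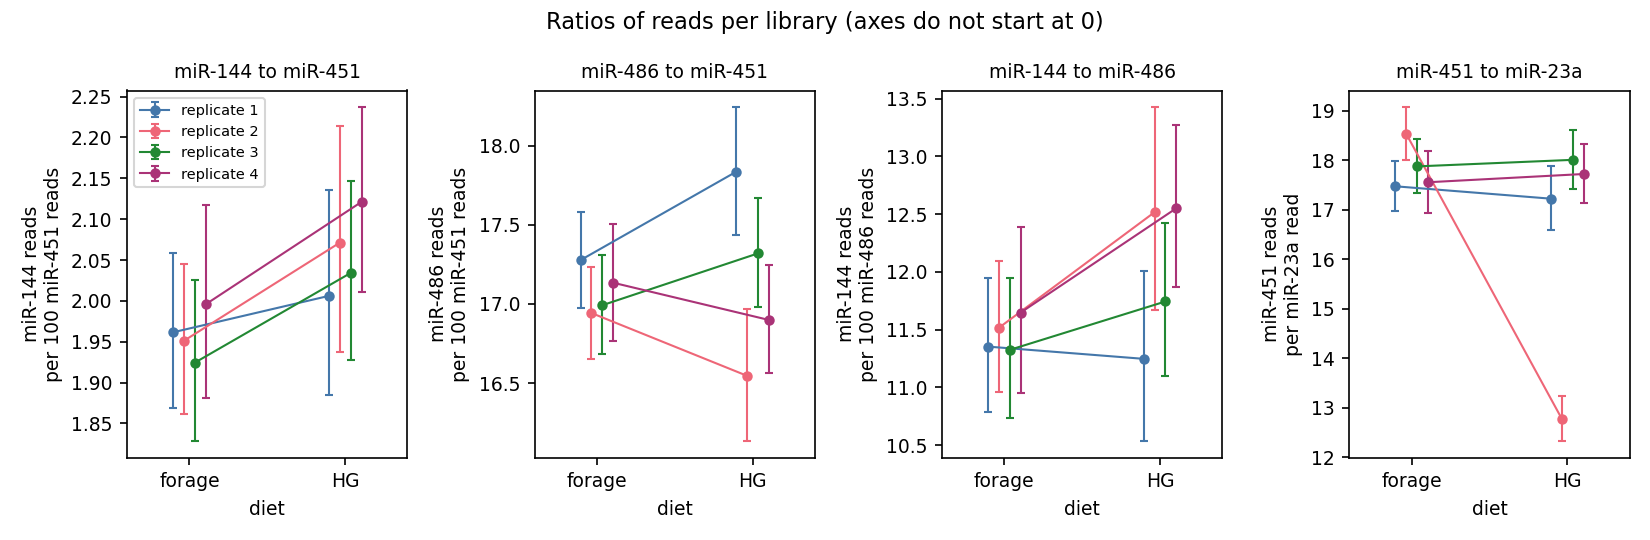
Ratios of reads within each library by diet (axes do not start at 0), with lines joining the libraries of a cow and bars for 95% intervals of counting error. The ratio of bta-miR-144 to bta-miR-451 rises in each of the 4 cows, from 1.92 to 1.996 on the forage diet to 2.01 to 2.12 on the HG diet, while bta-miR-451 to bta-miR-23a departs in HG replicate 2 only, at 12.8.

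The plot of ratios shows the error bars of single libraries, which are wider than that of a mean over 4 cows.

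Reads of bta-miR-451 were the same, in 8 of 8 libraries, as those listed for the human entry hsa-miR-451a, and reads of bta-miR-486 were the same as those of hsa-miR-486-5p. In the divided reads, where a read is shared among the entries it maps to, both bovine entries therefore held 50% of their reads. bta-miR-144 had no such entry and kept all of its reads. By total reads, divided reads raised its rank from 49 to 39 and that of bta-miR-486 from 8 to 6. In HG replicate 2 alone, bta-miR-486 went from rank 9 to 12 and bta-miR-451 from 2 to 3. With divided reads the log2 fold change between diets was -0.10 for bta-miR-451, -0.09 for bta-miR-486 and -0.02 for bta-miR-144, and edgeR called none of the 3 (adjusted p = 0.820, 0.820 and 0.916). The authors' normalised values, made from divided reads, were 33190, 34340, 33492 and 33227 for bta-miR-451 in forage replicates 1 to 4. They were 32407, 28198, 32742 and 32735 in HG replicates 1 to 4.

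Each miRNA was also spread over several distinct sequences. bta-miR-451 was read as 225 to 269 distinct sequences per library on the forage diet and as 188 to 248 on the HG diet. bta-miR-486 had 148 to 211 and 126 to 165, and bta-miR-144 had 19 to 29 and 17 to 28.

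Other miRNAs in general use as markers of cells that rumen fluid could hold were listed beside the 3. Of 15 other miRNAs abundant in blood cells, 14 were detected, and 9 were lower and 5 higher on the HG diet, with 0 called by edgeR and a median log2 fold change of -0.03, beside 0.03 over all 377 entries, of which 210 were higher and 167 lower. Their summed share was 12.5% to 12.7% on the forage diet and 10.3% to 12.7% on the HG diet. In HG replicate 2 this share was 81.5% of the mean of the other libraries, and 13 of the 14 were lowest there. Without replicate 2 the median was 0.00073 and 7 of 14 were lower. Of the 6 leukocyte miRNAs, 4 were lower and 2 higher, with 0 called. Their sum in HG replicate 2 was 81.2% of that of the other libraries, with 4 of the 6 lowest there and 2 highest. Their median log2 fold change was -0.05, and without replicate 2 it was -0.02, with 4 of 6 lower. The 7 detected epithelial miRNAs, such as bta-miR-205, all had positive log2 fold changes (0.0016 to 0.31, median 0.16), with 0 called. With RLE normalization or with DESeq2, 1 of the 7 was lower. The summed share of the 7 in HG replicate 2 was 139% of that of the other libraries, with 5 highest there and 1 lowest. Without replicate 2 the direction turned, with 5 of 7 lower and a median of -0.02. Of the 6 smooth muscle and stromal miRNAs, such as bta-miR-143, 5 were higher and 1 lower, with 0 called and a median of 0.21, and their summed share in HG replicate 2 was 135% of the other libraries. Without replicate 2 the median turned to -0.01, with 3 of 6 lower, and with no block and without HG replicate 2 it was -0.03, with 5 of 6 lower. The 2 endothelial entries, of bta-miR-126, were both higher, with 0 called and a median of 0.24, which was 0.04 without replicate 2, and their summed share in HG replicate 2 was 150% of that of the other libraries. Of the 3 detected striated muscle entries 1 was higher and 2 lower, with 0 called and a median of -0.01 with and without replicate 2. Their summed share in HG replicate 2 was 71.1% of that of the other libraries, with bta-miR-1 at 69.5%, bta-miR-133a at 38.2% and bta-miR-499 at 134%. The part of these cell types in the levels of the 3 miRNAs was not tested.

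**Figure D5:**
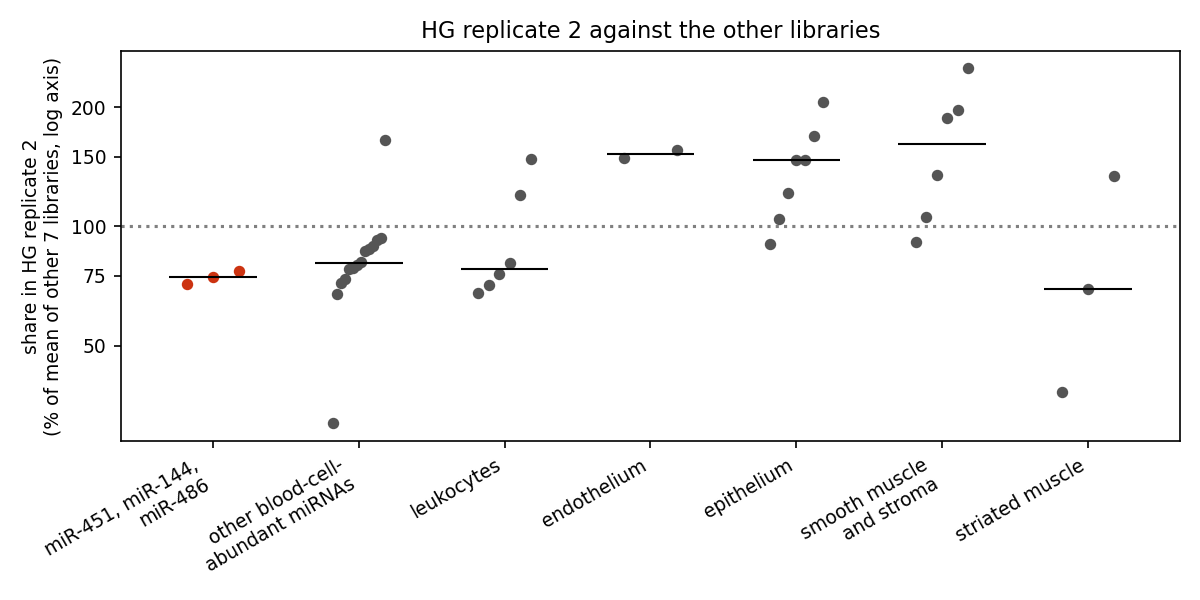
Share in HG replicate 2 as a percentage of the mean of the other 7 libraries (log axis), with 1 point per detected miRNA of each marker list and a line for the list median. The 3 red-cell miRNAs lie at 71.6% to 77.1%.

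The plot of HG replicate 2 shows the lists of blood and leukocyte miRNAs mostly under 100%, and the epithelial, endothelial, smooth muscle and stromal lists mostly over it. These are shares of one total, so a rise of one list lowers the others.

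The bovine entries whose log2 share was most like that of each miRNA were found among 197 bovine entries that reached 10 reads in each library, by Pearson's r as a description. Over the 8 libraries these were bta-let-7f (r = 0.989), bta-miR-486 (0.988) and bta-miR-142-5p (0.987) for bta-miR-451. For bta-miR-486 they were bta-miR-191 (0.997), bta-miR-93 (0.991) and bta-miR-150 (0.989). For bta-miR-144 they were bta-miR-124a and bta-miR-124b, with equal values (0.981), and bta-miR-101 (0.966). The entries of a library share its miRNA total, and the libraries compared include HG replicate 2. Over the other 7 libraries, r was 0.12 between bta-miR-451 and bta-miR-486, -0.07 between bta-miR-451 and bta-miR-144, and -0.56 between bta-miR-144 and bta-miR-486. The nearest entries were then bta-miR-302c (0.881), bta-miR-205 (0.842) and bta-miR-1839 (0.807) for bta-miR-451. They were bta-miR-185 (0.838), bta-miR-495 (0.786) and bta-miR-183 (0.785) for bta-miR-144. For bta-miR-486 they were bta-miR-150 (0.944), bta-miR-532 (0.899) and bta-miR-21-5p (0.874). Only bta-miR-150, for bta-miR-486, was among the 3 nearest entries both with and without HG replicate 2.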

How the data were processed

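Rumen fluid small RNA of 4 cows on 2 diets was analysed as 8 libraries. The authors demultiplexed the reads with bcl2fastq 2.20, trimmed adapters with Skewer, removed short and low-quality reads, and assigned the rest with sRNAbench (genome mode; Bowtie, mismatches allowed) on UMD3.1 with bovine and human miRBase entries. The authors deposited per library a read count per entry, where a read matching several entries is counted whole at every one. The authors deposited beside it an expected count, where these reads are split between the entries matched. The deposited RPM is relative to all reads of the library. The miRNA total was recovered from a deposited score, the RPM relative to miRNA reads. The authors also deposited a normalized signal table, which equalled the expected counts, rounded to the nearest whole read with ties upward and divided by 1 factor per library (all 377 entries of all 8 libraries, within 0.01 reads).

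Shares, ratios and tests used the undivided read counts. The 377 of 565 entries that reached 10 reads in some library entered edgeR 4.0.16 under R 4.3.3 (TMM, quasi-likelihood test, two-sided, cow and diet), with Benjamini-Hochberg adjustment over all 377 and a threshold of 0.05. Tested on simulated counts for this comparison over 377 entries, edgeR called 19 of 20 entries changed 2-fold, 16 of 20 changed 1.5-fold and 2 of 337 unchanged entries. The changed entries were drawn only from entries with more reads. The simulation held no cow effect and no outlying library such as HG replicate 2. These counts therefore do not give the power of the test in the real libraries. Log2 ratios were compared by exact permutation tests over cows. Intervals are 95% Wilson intervals. DESeq2 1.42.0, Python 3.11.15, numpy 2.4.6, pandas 2.3.3, scipy 1.17.1 and matplotlib 3.10.9 were also used.

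Libraries of the same number were paired because the same 4 cows were sampled on both diets and the labels number them alike. Deviations of same-numbered libraries from their diet's mean correlated at -0.21 to 0.07 over 278 entries, so the pairing rests on the labels. The miRNAs named were the 3 red-cell miRNAs, entries with equal reads, bta-miR-23a, for each miRNA the 3 entries most like it, and examples from the marker lists. The entries called without replicate 2, and the example members bta-miR-143, bta-miR-205, bta-miR-126, bta-miR-1, bta-miR-133a and bta-miR-499, were picked once their values were known. The members and the marker lists were chosen with earlier results of these data known. Alternatives were another normalization (RLE), DESeq2, no filter, divided reads, bovine entries alone, no replicate block, and leaving out libraries. Papillae libraries were not analysed here.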

Additional observations from a re-analysis of the deposited data

Results flagged for a closer look

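Of 32 sets of 4 libraries examined, 9 held a library far from the other 3, while chance gives about 1 in 20. HG replicate 2 was far below the other HG libraries in the share of bta-miR-451 (12.6%), the share of bta-miR-486 (2.09%), the TMM-normalised CPM of bta-miR-451 (94448) and of bta-miR-486 (15627), and the log2 ratio of bta-miR-451 to bta-miR-23a (3.67). HG replicate 3 was far above the other HG libraries in RPM of all reads for bta-miR-451 (46913), bta-miR-144 (954) and bta-miR-486 (8125), and miRNA reads were 27.8% of its reads. Forage replicate 2 was far above the other forage libraries in the TMM-normalised CPM of bta-miR-451 (113312). The values of 1 library are not independent of each other.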

How the results depend on the processing

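None of the 3 miRNAs was called for diet under any of the 11 alternatives, with log2 fold changes of -0.12 to -0.02 for bta-miR-451 (adjusted p 0.678 to 0.999), -0.12 to -0.0041 for bta-miR-486 (0.693 to 0.999) and -0.053 to 0.045 for bta-miR-144 (0.755 to 0.999) in edgeR and DESeq2. bta-miR-144 turned to 0.045 without replicate 2 and to 0.040 with no replicate block and without HG replicate 2. Without replicate 2, edgeR called 2 entries, bta-miR-2285ak-5p and bta-miR-2285bh, which are 1 set of 88 reads listed under both names and were read in forage replicate 1 alone. Leaving out each cow gave 0 to 2. With no replicate block, in which the pairing by cow is dropped, the mean log2 ratio of bta-miR-144 to bta-miR-451 was 0.072 higher on the HG diet (exact permutation test, p = 0.0286, or 0.114 adjusted over the 4 ratios). Also without HG replicate 2 it was 0.068 higher (exact permutation test, p = 0.0286). Each p is the smallest that its number of libraries allows, so the second is no separate support. In the fits of all 8 libraries, dropping the block changed no call at an adjusted p of 0.05. Leaving out each cow gave 0.07 to 0.08 for that ratio, -0.0089 to 0.018 for bta-miR-486 to bta-miR-451, 0.05 to 0.09 for bta-miR-144 to bta-miR-486 and -0.18 to 0.0012 for bta-miR-451 to bta-miR-23a. bta-miR-486 to bta-miR-451 turned to -0.0089 without replicate 1 and -0.0027 without replicate 3, and bta-miR-451 to bta-miR-23a to 0.0012 without replicate 2. From divided reads the shares were 10.8% forage and 9.94% HG for bta-miR-451, 0.421% and 0.409% for bta-miR-144, and 1.84% and 1.71% for bta-miR-486. Over the undivided reads of all entries they were 11.2% and 10.4%, 0.220% and 0.215%, and 1.92% and 1.79%. These shifts follow from the denominators and from reads divided with human entries. With 4 cows, exact paired tests cannot go below p = 0.13, and the p-values measure the spread between single samples per cow and diet.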
